A study of Mus musculus with 15 samples.

Results

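Complement is a cascade of plasma and tissue proteins that marks surfaces for removal and releases inflammatory fragments. The subject here is 8 of its genes in mouse fibroblasts: the proteases C1r and C1s, the components C4b, C2 and C3, the alternative pathway enzymes Cfb and Cfd, and the C1 inhibitor Serping1. They are 8 of the 33978 gene names in the files, and 11 of the 41174 probes of the array read them. All 11 were among the 38522 probes tested. A probe was a member if its gene name, or the symbol in brackets in its description, was that of a member, with C1s and C1r also taken as C1s1 and C1ra. That found 8 probes of 5 genes. C4b, Cfb and Cfd stand in the files under the older symbols C4, H2-Bf and Adn, and their 3 probes were matched through the RefSeq accession in the files. The C4b probe lists 3 accessions, among them that of C4a, so C4a and C4b transcripts cannot be told apart there. C3, C1s and C2 had a pair of probes each, and the other 5 genes had 1.

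RNA of 5 fibroblast sources was hybridised to 15 Agilent arrays, 3 per source, against a commercial mouse reference RNA. The series concerns fibroblasts from tumours that do not respond to blockade of VEGF, the vascular endothelial growth factor. By its labels, 2 sources are sensitive, NSF and TAF-tib6 (6 arrays), and 3 are resistant, namely TAF-el4, TAF-tib42 and TAF-tib48 (9 arrays). The labels do not spell out these names. Strain, age, treatment, passage and the number of animals or clones behind a source are not given in the sources used here. Whether the arrays of a source hold RNA of separate cultures is not stated, so a p-value between sources reflects array-to-array spread only, and that spread can be technical. The scale throughout is the log2 ratio of fibroblast RNA to reference RNA on the same array. Probes differ in brightness for reasons other than abundance, so levels are compared between sources and not between probes.

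In the classical pathway, C1q bound to a surface activates the protease C1r, which cleaves C1s. C1s then cleaves C4 and C2, whose fragments form the enzyme that splits C3, the component at which all routes meet. The alternative pathway builds a second C3-splitting enzyme from C3b and factor B, after factor D has cut factor B. Serping1 encodes the inhibitor that removes active C1r and C1s. The liver makes most plasma complement, and fibroblasts are known to make several of these proteins, more so under inflammatory cytokines.

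Promoters are shown for members whose probes fell together, C1r, C1s and C3, and for Cfd, whose probe did not. RefSeq's promoter table (GRCm38.p6) matched 4 of the 8 genes, and C4b, C2, Cfb and Serping1 have no entry there. Each sequence runs 5′ to 3′ over the 250 bases before the annotated start, at chr17:57228137-57228386 on the minus strand for C3, chr6:124542360-124542609 on the minus strand for C1s, chr6:124512371-124512620 on the plus strand for C1r and chr10:79890603-79890852 on the plus strand for Cfd. C1s has a second entry, not shown, that starts slightly further downstream and holds 1 of the matches. Capitals mark every match, on either strand, to TTNCNNAA, a short form of the element bound by C/EBP factors.
C3: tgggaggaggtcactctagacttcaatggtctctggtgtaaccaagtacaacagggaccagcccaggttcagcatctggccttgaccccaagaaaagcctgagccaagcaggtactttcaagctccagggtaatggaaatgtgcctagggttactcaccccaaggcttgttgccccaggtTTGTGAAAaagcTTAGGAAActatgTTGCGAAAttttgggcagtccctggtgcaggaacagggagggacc
C1s: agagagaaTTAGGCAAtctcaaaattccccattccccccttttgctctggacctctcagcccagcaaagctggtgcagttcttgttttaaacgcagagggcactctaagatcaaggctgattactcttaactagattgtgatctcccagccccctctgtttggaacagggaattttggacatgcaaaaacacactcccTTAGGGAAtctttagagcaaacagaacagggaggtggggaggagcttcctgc
C1r: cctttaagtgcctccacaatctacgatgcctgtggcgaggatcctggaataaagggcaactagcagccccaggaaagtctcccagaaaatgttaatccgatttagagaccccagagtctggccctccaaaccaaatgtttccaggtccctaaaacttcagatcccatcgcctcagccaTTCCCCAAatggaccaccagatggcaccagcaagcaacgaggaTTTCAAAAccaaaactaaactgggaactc
Cfd: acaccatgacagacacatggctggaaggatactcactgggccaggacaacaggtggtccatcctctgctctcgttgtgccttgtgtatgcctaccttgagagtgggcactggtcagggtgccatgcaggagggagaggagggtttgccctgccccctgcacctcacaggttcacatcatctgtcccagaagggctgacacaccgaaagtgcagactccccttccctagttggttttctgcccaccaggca
The C3 promoter held 3 matches, TTGTGAAA, TTAGGAAA and TTGCGAAA, all between 38 and 70 bases before the start. The C1s promoter held 2, and so did the C1r promoter. The Cfd promoter held 0. Of 32851 promoter windows of this length in the table, 36.8% held at least 1 match, 10.9% at least 2 and 2.61% at least 3. None of these 4 windows matched TTCNNNGAA, the STAT element, TATAAA or the NF-kB consensus on either strand. These occur in 7.02%, 12.4% and 7.25% of all windows, and a match or its lack is a description of the letters only.

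All member spots were free of outlier flags and saturation, and all 11 probes were well above background on all 15 arrays by the scanner's flag. The arrays had a median Cy5 signal of 174.7 to 285.9 intensity units, with backgrounds of 52 to 56, and precision is limited by there being 3 of them per source. Arrays of the same source differed by a median SD of 0.053 (log2) per probe. TAF-tib48 replicate 3 stood above the other arrays of its source for several members, which is given where it matters. Slide numbers in the file headers fall into 3 consecutive runs, called slide packs here. The first held NSF and TAF-el4 replicates 1 and 2, the second TAF-el4 replicate 3, TAF-tib42 and TAF-tib48 replicate 1, and the third the rest of TAF-tib48 and TAF-tib6. No pack held both NSF and TAF-tib6, or both NSF and TAF-tib42 or TAF-tib48. None held both TAF-tib6 and TAF-el4 or TAF-tib42. A fit with the pack as a block compares such sources only through TAF-el4, TAF-tib48 or both, whose arrays lie in more than 1 pack. Where sources share a pack, the blocked difference is by construction the difference within that pack, and not a separate result. The second pack held 1 array of TAF-el4 and 1 of TAF-tib48, so only effect sizes are given for comparisons within it.

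NSF had the highest level of 10 of the 11 probes, the exception being Cfd. How many of all probes were highest in NSF was not counted. In all 4 TAF sources, 9 of the 11 probes were called lower than in NSF (limma, adjusted p under 0.05), where 1.75% of all probes tested were. They cover every member except Cfd, with 1 of the 2 C3 probes. In each resistant source the steepest fall was that of C3. The F-test across sources called 10 of the 11 probes, against 43.4% of all probes. With slide pack as a block in the fit, 3 of the 9 probes (Cfb, Serping1 and a C1s probe) were still called in all 4 sources. How many of all probes were so called with the block was not counted. The complement calls lost were those of TAF-tib6 against NSF for 6 probes and of TAF-tib42 against NSF for C1r. Between NSF and TAF-el4, which share a pack, 9 probes were called lower within it too. A lower signal in bulk RNA can stem from fewer cells that express a gene or from less RNA per cell, and these cannot be told apart here.

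**Figure D1:**
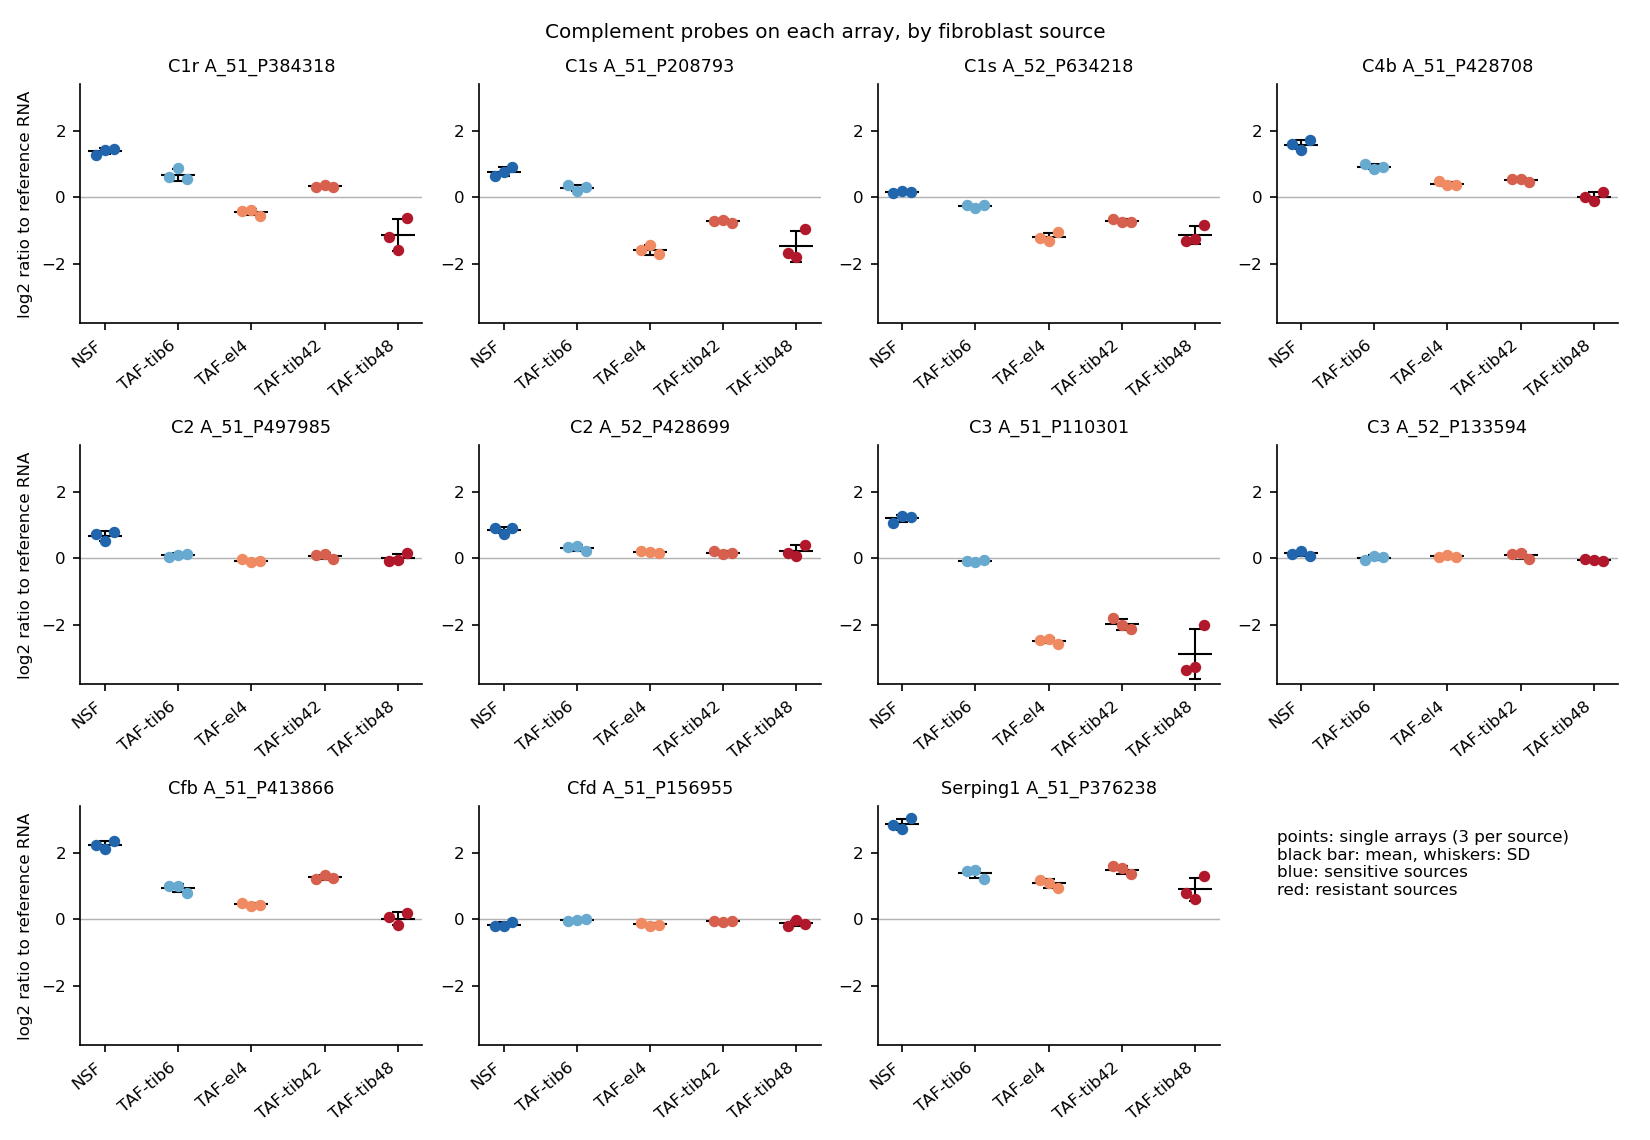
Log2 ratio to the reference RNA (vertical axes, 1 common scale) of the 11 complement probes on each of the 15 arrays, by source. Points are arrays, black bars the mean and SD of 3 arrays, blue the sensitive and red the resistant sources. NSF is highest in every panel except Cfd, and the C3 probe A_51_P110301 spans the widest range, from 1.20 in NSF to -2.88 in TAF-tib48.

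The proteases C1r and C1s were lower in TAF-el4 and TAF-tib48 than in the other 3 sources. The C1r probe read 1.29, 1.43 and 1.45 in NSF and 0.61, 0.88 and 0.54 in TAF-tib6. In the resistant sources it read -0.41, -0.40 and -0.55 in TAF-el4, 0.30, 0.36 and 0.32 in TAF-tib42, and -1.20, -1.59 and -0.64 in TAF-tib48. No array of a resistant source reached any array of a sensitive source, and the 5 sources did not overlap each other. By source means, 12.8% of all probes had each resistant source below both sensitive sources. The share separated array by array was not counted, here or for the members below, and arrays of a source are not replicates of a response. Relative to NSF, C1r was 5.78-fold lower in TAF-tib48 (-2.53, SE 0.15, adjusted p = 2.13e-10), 3.58-fold lower in TAF-el4 and 2.09-fold lower in TAF-tib42. TAF-tib6 was 1.64-fold below NSF (adjusted p = 0.00315, and 0.055 with scaled log ratios). The order was NSF, TAF-tib6, TAF-tib42, TAF-el4, TAF-tib48, and the step from TAF-tib6 to TAF-tib42 was not called (-0.35, SE 0.15, adjusted p = 0.0947). Without replicate 3 of every source it was called (-0.42, adjusted p = 0.0145). Without replicate 1 of every source, the C1r calls of TAF-tib6 against NSF (adjusted p = 0.0679) and TAF-el4 against TAF-tib48 (adjusted p = 0.0567) were lost. With the slide pack block, TAF-tib42 against NSF (-0.91, adjusted p = 0.059), TAF-tib6 against NSF (-0.64, adjusted p = 0.538) and TAF-el4 against TAF-tib48 (0.64, adjusted p = 0.17) were no longer called. The last value is the difference within the second pack, with 1 array of each.

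C1s, the protease that C1r activates, was read by probes whose midpoints lie 639 bases apart in the deposited coordinates. The probe A_51_P208793 read 0.63, 0.77 and 0.92 in NSF, 0.37, 0.19 and 0.30 in TAF-tib6, and -0.71, -0.67 and -0.77 in TAF-tib42. It read -1.61, -1.44 and -1.72 in TAF-el4 and -1.69, -1.81 and -0.96 in TAF-tib48. All 9 resistant arrays lay below 0 and all 6 sensitive arrays above it, an order that 12.8% of all probes had by source means. C1s by this probe was 5.15-fold lower in TAF-el4, 4.79-fold lower in TAF-tib48 and 2.81-fold lower in TAF-tib42 than in NSF (SE 0.14 on the log2 scale each). Its difference between TAF-tib6 and NSF was -0.49 (SE 0.14, adjusted p = 0.0349). That call was lost without NSF replicate 2 or 3 or any 1 array of TAF-tib6 (adjusted p = 0.0579 to 0.122), with Cy5 alone (0.133), with scaled log ratios (0.268) and in the authors' deposited table (0.127).

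The other C1s probe, A_52_P634218, gave the same order with smaller steps. Its means were 0.15 ± 0.034 in NSF, -0.27 ± 0.049 in TAF-tib6, -0.71 ± 0.059 in TAF-tib42, -1.15 ± 0.27 in TAF-tib48 and -1.20 ± 0.13 in TAF-el4 (SD, n = 3). The fall from NSF was 2.55-fold in TAF-el4, 2.46-fold in TAF-tib48 and 1.82-fold in TAF-tib42. TAF-el4 and TAF-tib48 were not called different by either probe (adjusted p = 0.655 and 0.735). Its call for TAF-tib6 against NSF (-0.42, SE 0.092, adjusted p = 0.00492) was lost in the authors' deposited table (adjusted p = 0.0791). Over the 15 arrays the 2 probes correlated at r = 0.9822, which describes probes of 1 gene on the same arrays. Against TAF-tib6, TAF-tib42 was 2.01-fold lower by A_51_P208793 and 1.36-fold lower by A_52_P634218, but with the slide pack block neither was called (adjusted p = 0.0975 and 0.559). A_52_P634218 also lost its call for TAF-el4 against TAF-tib6 with the block (-0.51, adjusted p = 0.0882), and for TAF-el4 against TAF-tib42 (-0.34, adjusted p = 0.0512). The latter value is the difference within the pack that these sources share, with 1 TAF-el4 array.

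C4b, the component that C1s cleaves first, fell in graded steps. It read 1.59, 1.44 and 1.72 in NSF and 1.0, 0.85 and 0.90 in TAF-tib6. The resistant sources read 0.48, 0.37 and 0.38 (TAF-el4), 0.55, 0.56 and 0.47 (TAF-tib42), and 0.014, -0.13 and 0.14 (TAF-tib48). No resistant array reached a sensitive array (12.8% of all probes had this order by source means), and TAF-tib48 lay below every other source. C4b was 2.98-fold lower in TAF-tib48 than in NSF (-1.58, SE 0.070, adjusted p = 5.38e-12), 2.26-fold lower in TAF-el4, 2.08-fold lower in TAF-tib42 and 1.59-fold lower in TAF-tib6. Between TAF-el4 and TAF-tib42 it was not called (-0.12, SE 0.070, adjusted p = 0.258). With the slide pack block, TAF-tib6 against NSF (-0.61, adjusted p = 0.125), TAF-tib42 against TAF-tib6 (-0.40, adjusted p = 0.0762) and TAF-el4 against TAF-tib48 (0.36, adjusted p = 0.101) lost their calls. The last value is the difference within the second pack, with 1 array of each.

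C2, the partner of C4b in the C3-splitting enzyme, showed 1 step only, between NSF and the TAF sources. The probe A_51_P497985 read 0.74, 0.51 and 0.80 in NSF, and its 12 TAF arrays lay between -0.11 and 0.16. The probe A_52_P428699, 609 bases away, read 0.91, 0.74 and 0.91 in NSF and had source means of 0.30 in TAF-tib6, 0.21 in TAF-tib48, 0.19 in TAF-el4 and 0.17 in TAF-tib42. No TAF array reached an NSF array by either probe. The fall from NSF was 1.51-fold to 1.69-fold by the former and 1.47-fold to 1.61-fold by the latter. None of the 6 comparisons among the TAF sources was called by either probe, with adjusted p of 0.114 to 0.84 and of 0.205 to 0.898. A_52_P428699 was called lower in TAF-tib48 than in TAF-tib6 without TAF-tib48 replicate 3 (-0.19, adjusted p = 0.0256). At A_51_P497985 the reference channel itself ranged from 257 to 647 net intensity units between arrays, and with Cy5 alone its calls of TAF-tib42 and TAF-tib48 against NSF were lost (adjusted p = 0.226 and 0.136). With Cy5 alone A_52_P428699 was called lower than in TAF-tib6 in TAF-el4 (-0.35, adjusted p = 0.0346) and TAF-tib42 (-0.34, adjusted p = 0.0263), while A_51_P497985 was called higher in TAF-tib42 than in TAF-tib6 (0.57, adjusted p = 0.0298). With the slide pack block, TAF-tib6 against NSF lost its call at both probes (adjusted p = 0.0592 and 0.137).

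C3, the component on which all pathways converge, had the widest range of the members at the probe A_51_P110301, the nearer of its probes to the 3′ end. It read 1.08, 1.27 and 1.25 in NSF, and -0.093, -0.12 and -0.042 in TAF-tib6. It read -2.46, -2.42 and -2.58 in TAF-el4, -1.80, -2.03 and -2.13 in TAF-tib42, and -3.36, -3.28 and -2.01 in TAF-tib48. All 9 resistant arrays lay at -1.80 or below and all 6 sensitive arrays at -0.12 or above, an order that 12.8% of all probes had by source means. Net Cy5 intensity, the signal above local background, ran from 18961 to 26229 in NSF, from 7195 to 8171 in TAF-tib6 and from 808 to 1947 in the resistant sources. Against NSF, C3 was 16.9-fold lower in TAF-tib48 (-4.08, SE 0.22, adjusted p = 6.48e-11), 12.9-fold lower in TAF-el4, 9.10-fold lower in TAF-tib42 and 2.43-fold lower in TAF-tib6. Against TAF-tib6 it was 6.97-fold, 5.29-fold and 3.74-fold lower in TAF-tib48, TAF-el4 and TAF-tib42. With slide pack as a block, the log2 difference of TAF-tib42 from TAF-tib6 was -1.19 (adjusted p = 0.0459) in place of -1.90, and that of TAF-el4 was -1.78 (adjusted p = 0.0173) in place of -2.40. Neither source shares a pack with TAF-tib6, so these blocked values run through TAF-tib48. They take in its replicate 3, which read -2.01 where its other arrays read -3.36 and -3.28. Blocked fits without that array were not run.

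Among the resistant sources the order of C3 was less settled. TAF-el4 was not called different from TAF-tib42 (-0.50, SE 0.22, adjusted p = 0.115) or from TAF-tib48 (0.40, SE 0.22, adjusted p = 0.211). TAF-tib48 replicate 3, at -2.01, stood above the other arrays of its source, at -3.36 and -3.28, and inside the range of TAF-tib42. Without it, C3 was higher in TAF-el4 than in TAF-tib48 by 0.83 (adjusted p = 2.84e-07). Within the second slide pack, with 1 array of each, the difference was 0.78. C3 was higher in TAF-tib42 than in TAF-tib48 by 0.90 (SE 0.22, adjusted p = 0.00788), a call lost without TAF-tib48 replicate 1 or 2 (adjusted p = 0.0548 and 0.0544), with Cy5 alone (0.0578) and with scaled log ratios (0.169). The difference was larger with the slide pack block (1.37, adjusted p = 0.00455). That blocked value is the difference within the second pack, with 1 TAF-tib48 array. In that pack, with 1 TAF-el4 array, the difference of TAF-el4 from TAF-tib42 was -0.59. With the slide pack block, the difference between TAF-tib6 and NSF was -1.86 and not called (adjusted p = 0.0681), against -1.28 (adjusted p = 0.000514) without it. The blocked value links TAF-tib6 to NSF through TAF-tib48 and TAF-el4, with 1 array of each in the second pack. It also takes in TAF-tib48 replicate 3.

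The second C3 probe, A_52_P133594, did not follow the first. Its midpoint lies 21004 bases towards the 5′ end of the gene in the deposited coordinates. Source means were 0.14 ± 0.070 in NSF, 0.019 ± 0.064 in TAF-tib6, 0.052 ± 0.035 in TAF-el4, 0.091 ± 0.11 in TAF-tib42 and -0.055 ± 0.029 in TAF-tib48 (SD, n = 3). Of its 10 pairwise comparisons only TAF-tib48 against NSF was called (-0.20, SE 0.054, adjusted p = 0.00996), and not without NSF replicate 2 (adjusted p = 0.0585) or with the slide pack block (adjusted p = 0.542). TAF-tib42 against TAF-tib48 was called without TAF-tib42 replicate 3 (0.21, adjusted p = 0.0117). Its net Cy5 intensity lay between 57.1 and 131 on the 15 arrays, which is 2.69 to 5.92 times the 99th percentile of the 314 negative control spots of the same array. At the 3′ probe that multiple was 35.8 to 1001. The files do not say which transcripts each probe detects.

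**Figure D2:**
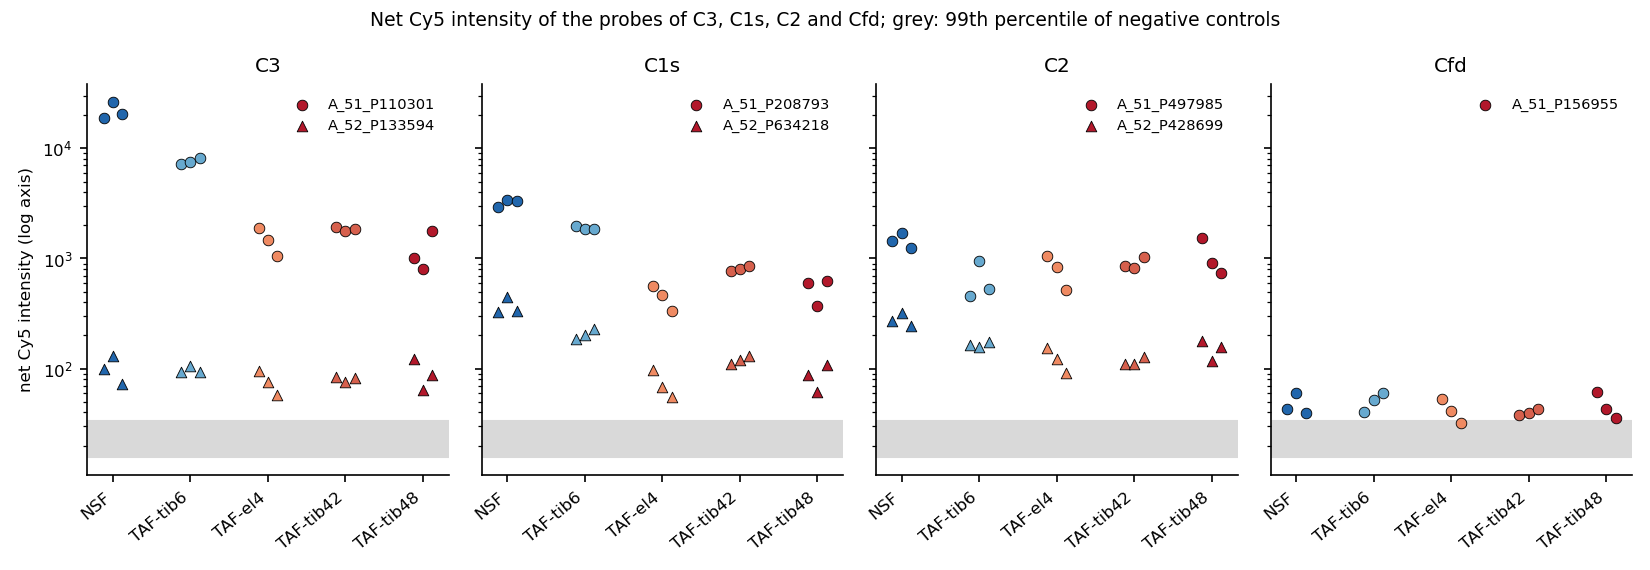
Net Cy5 intensity (log axis) of each array for the probes of C3, C1s, C2 and Cfd, by source; circles and triangles are different probes of a gene, and the grey band is the range over arrays of the 99th percentile of negative control spots. The C3 probe A_51_P110301 falls from 26229 to 808 while A_52_P133594 stays between 57.1 and 131, and Cfd stays between 32.3 and 61.9.

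Cfb, factor B of the alternative pathway, was the member whose 5 source means were called apart in all 10 pairs. It read 2.25, 2.13 and 2.36 in NSF, 1.0, 1.0 and 0.79 in TAF-tib6, and 1.20, 1.34 and 1.25 in TAF-tib42. It read 0.50, 0.40 and 0.44 in TAF-el4 and 0.067, -0.18 and 0.17 in TAF-tib48. The arrays of the 5 sources did not overlap, and resistant sources lay on both sides of TAF-tib6. Cfb was 4.67-fold lower in TAF-tib48 than in NSF (-2.22, SE 0.080, adjusted p = 2.51e-13), 3.48-fold lower in TAF-el4, 2.49-fold lower in TAF-tib6 and 1.97-fold lower in TAF-tib42. TAF-tib42 was 1.26-fold above TAF-tib6 (0.33, SE 0.080, adjusted p = 0.00425), the only call of a member higher in a resistant than in a sensitive source. That call was lost with scaled log ratios (adjusted p = 0.0598), with Cy5 alone (adjusted p = 0.0791) and with the slide pack block (0.26, adjusted p = 0.334). The block also ended the calls of TAF-el4 against TAF-tib6 (-0.56, adjusted p = 0.0747) and TAF-el4 against TAF-tib48 (0.37, adjusted p = 0.143). The latter value is the difference within the second pack, with 1 array of each.

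The Cfb and C2 probes lie 5.92 kb apart in the deposited coordinates, and the C4b probe 126 kb from that of Cfb. All 3 belong to the class III region of the major histocompatibility complex. Across the TAF sources these neighbours differed in range: source means spanned 1.25 for Cfb between TAF-tib42 and TAF-tib48, and C2 had no call among them. C1r and C1s probes lie 50.3 kb apart.

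Cfd, the protease that activates factor B and a product of adipocytes, had no call in any comparison. Its means were -0.16 ± 0.064 in NSF, -0.028 ± 0.034 in TAF-tib6, -0.16 ± 0.037 in TAF-el4, -0.067 ± 0.026 in TAF-tib42 and -0.12 ± 0.092 in TAF-tib48 (SD, n = 3). The F-test gave an adjusted p of 0.0996, and the pair with the lowest adjusted p was TAF-el4 against TAF-tib6 (-0.13, SE 0.049, adjusted p = 0.0658). Net Cy5 intensity was 32.3 to 61.9, or 1.18 to 2.98 times the negative control percentile. In the authors' deposited table, whose ratios lack the offset used here, TAF-el4 was 0.49 below TAF-tib6 on the log2 scale in the same fit (adjusted p = 0.0244) and TAF-tib6 0.48 above NSF (adjusted p = 0.0425). With median centring, TAF-tib6 was 0.29 above NSF (adjusted p = 0.0101) and TAF-tib42 0.24 above it (adjusted p = 0.0177).

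Serping1, the inhibitor of C1r and C1s, separated NSF from all TAF sources. It read 2.83, 2.73 and 3.04 in NSF, 1.44, 1.48 and 1.22 in TAF-tib6, and 1.20, 1.09 and 0.95 in TAF-el4. It read 1.59, 1.54 and 1.35 in TAF-tib42 and 0.80, 0.60 and 1.29 in TAF-tib48. Every NSF array lay above every TAF array. TAF-tib42 overlapped TAF-tib6, and TAF-tib48 overlapped both TAF-tib6 and TAF-el4. Serping1 was 3.91-fold lower in TAF-tib48 than in NSF (-1.97, SE 0.13, adjusted p = 1.06e-09), 3.45-fold lower in TAF-el4, 2.80-fold lower in TAF-tib6 and 2.59-fold lower in TAF-tib42. At this probe net Cy3 of the reference was 110 to 121 in NSF and 52 to 73.9 on the TAF arrays. Net Cy5 was 1831 to 2542 in NSF and 113 to 358 on the TAF arrays. The folds thus rest on a dim reference signal that itself differed between NSF and the TAF sources. In order of level, the neighbours TAF-tib42 and TAF-tib6 (adjusted p = 0.583), TAF-tib6 and TAF-el4 (0.113), and TAF-el4 and TAF-tib48 (0.347) were not called apart. TAF-el4 was called below TAF-tib6 with scaled log ratios (-0.54, adjusted p = 0.0417) and without replicate 3 of every source (-0.32, adjusted p = 0.00566). TAF-tib48 was called below TAF-tib6 (-0.48, SE 0.13, adjusted p = 0.00944), but not without TAF-tib48 replicate 2 (adjusted p = 0.0704) or within the third slide pack (adjusted p = 0.109). TAF-el4 was called below TAF-tib42 (-0.41, SE 0.13, adjusted p = 0.0245), but not without TAF-el4 replicate 2 or 3 or TAF-tib42 replicate 1 or 2 (adjusted p = 0.0606 to 0.105), nor in the authors' deposited table (-0.13, adjusted p = 0.772) or with the slide pack block (-0.54, adjusted p = 0.0645). That blocked value is the difference within the second pack, with 1 TAF-el4 array. Without TAF-tib48 replicate 3, TAF-el4 was called above TAF-tib48 (0.38, adjusted p = 0.011).

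**Figure D3:**
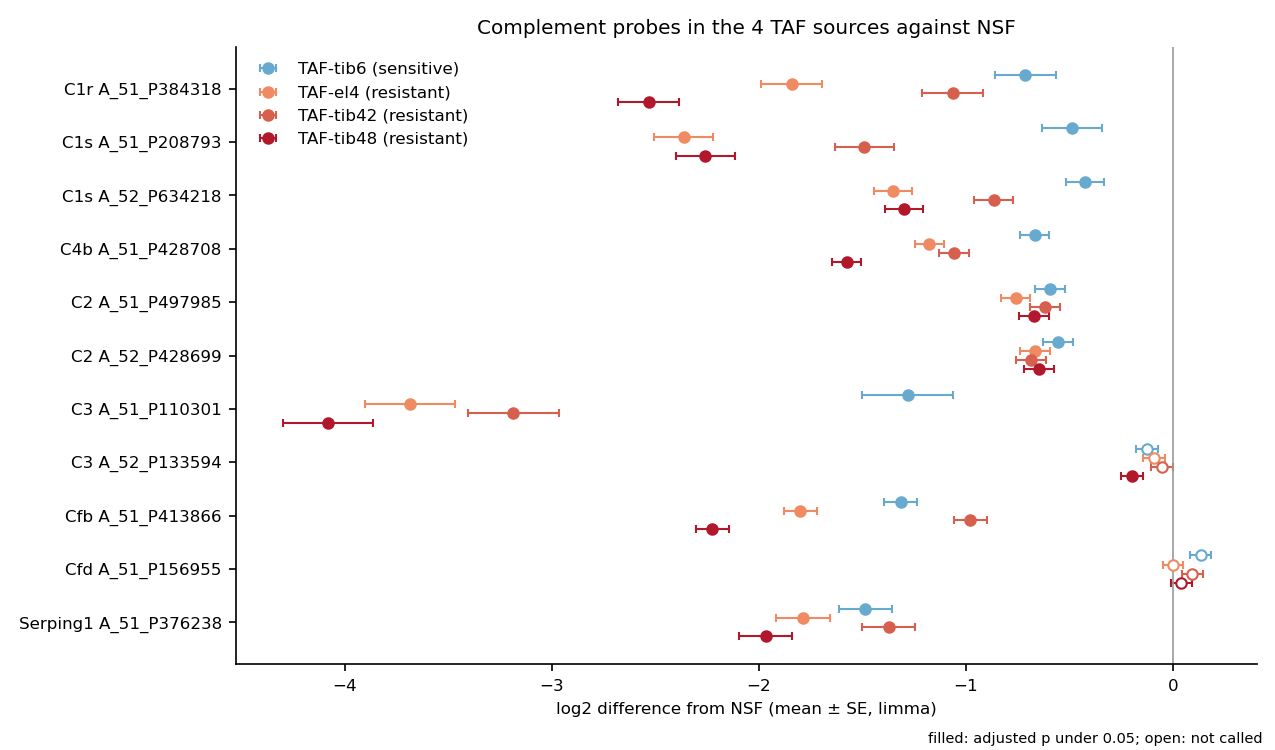
Log2 difference from NSF (horizontal axis, mean ± SE from limma) of each complement probe in the 4 TAF sources; filled points have an adjusted p under 0.05, open points do not. The C3 probe A_51_P110301 reaches -4.08 in TAF-tib48, C2 sits between -0.76 and -0.55 in all 4 sources, and Cfd lies at or above 0.

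Counted by comparison, complement probes fell from NSF in each TAF source. In TAF-el4 9 of 11 were called lower (8.54% of all probes tested were called lower), in TAF-tib42 9 (13%), in TAF-tib48 10 (14.1%) and in TAF-tib6 9 (6.62%). Their median difference was -1.35, -0.98, -1.58 and -0.59 in that order, where the median of all probes lay between -0.0055 and 0.0018. These 4 comparisons share the NSF arrays. For TAF-tib6 the count was 3 with the slide pack block, where all 3 were lower, as were 375 of all probes.

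The labels' comparison of resistant with sensitive sources took the source as the unit, with 3 against 2. None of the 11 probes was called, with a lowest adjusted p of 0.256 (C3 by A_51_P110301, -3.01, SE 0.44, and C1s by A_51_P208793, -1.79, SE 0.30). Over all 38522 probes limma called 1 (0.0026%), and 3666 had an unadjusted p under 0.05. When the 15 arrays were used with the source as a random block, 5 complement probes were called lower (C1r, both of C1s, the 3′ probe of C3 and C4b). Over all probes that fit made 1826 calls, 1039 of them lower. It draws on arrays, with 1 common correlation for all probes, while the labels give the response for 5 sources. Its p-values can therefore be too small. Each resistant source mean lay below both sensitive means for 7 probes, those of C1r, C1s, C2 and C4b and the 3′ probe of C3, as it did for 12.8% of all probes. The exceptions were Cfb and Serping1, where TAF-tib42 was above TAF-tib6, Cfd and the other C3 probe. In all 6 pairings of a resistant with a sensitive source 4 probes were called lower, the 3′ probe of C3, both of C1s and C4b, against 1.45% of all probes. With slide pack as a block only the C3 probe was called in all 6. The share of all probes so called with the block was not counted.

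Against TAF-tib6, the sensitive TAF source, 6 probes were called lower in TAF-el4 (8.95% of all probes were), 7 in TAF-tib48 (12.5%), and 4 lower (12.6%) and 1 higher (12.2%) in TAF-tib42. With the slide pack block the counts were 4 in TAF-el4, 7 in TAF-tib48 and 1 in TAF-tib42, the last being C3. Of all probes, 774 were called lower in TAF-el4 and 1914 in TAF-tib42 with the block. Within the third pack, which holds arrays of TAF-tib6 and TAF-tib48, TAF-tib48 had 6 lower, and 3197 of all probes. Among the resistant sources, 7 probes were called higher in TAF-tib42 than in TAF-tib48 (6.49% of all probes), and 7 also with the block (1530 of all probes). In TAF-el4 5 were called lower than in TAF-tib42 (9.93%), and 3 with the block (2035 of all probes). In TAF-el4 3 were called higher than in TAF-tib48 (13.5%), namely C1r, C4b and Cfb. That count was 0 with the block (2157 of all probes) and 5 without TAF-tib48 replicate 3.

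Calls among other complement genes went in both directions. A list of 51 complement genes beside the members had 45 genes with a probe and 56 probes tested, and the F-test called 18 of them, where it called 43.4% of all probes. Against NSF, 4 probes were called lower and 3 higher in TAF-el4, 15 and 3 in TAF-tib42, 6 and 6 in TAF-tib48, and 8 and 1 in TAF-tib6. Of all 38522 probes, 8.54%, 13%, 14.1% and 6.62% were called lower in that order, and 3419, 4314, 4795 and 1697 probes higher. In TAF-el4 and TAF-tib48 the list was called no more often than all probes. The list's median difference from NSF lay between -0.033 and 0.017. C1qa, C1qb and C1qc, the chains of C1q that start the classical pathway, had source means that spanned 0.10, 0.062 and 0.053, and the F-test called none (adjusted p = 0.12 to 0.94).

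Genes of the list with the widest range among the called probes are described by role. C1s2, a copy of C1s, fell from 0.20 in NSF to -0.11 in TAF-tib6, -0.34 in TAF-tib42, -0.43 in TAF-tib48 and -0.50 in TAF-el4, with all 4 called below NSF (adjusted p = 3.72e-07 to 0.0044), and near-identical sequence shared with C1s could contribute to its signal. Colec12, a scavenger receptor of the collectin family, was lowest in TAF-tib48 by both probes, at -1.75 and -1.81, which is 2.24 and 1.69 below NSF (SE 0.11 and 0.082, adjusted p = 3.35e-11 and 1.62e-11). Hc, which encodes C5, was highest in TAF-tib48 (0.97 against 0.19 in NSF, difference 0.78, SE 0.057, adjusted p = 5.33e-09), and the other 4 sources lay between 0.14 and 0.24. Cfhr2 was also highest in TAF-tib48 (-1.0 against -1.87 in NSF, difference 0.87, SE 0.072, adjusted p = 2.94e-08). The Cfhr2 probe was dim, with a mean net Cy5 of 145 in TAF-tib48 and 29.2 to 79.5 in the other sources.

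The membrane inhibitors Cd55, Cd59a and Cr1l ordered the sources differently. Cd55, which breaks up the C3-splitting enzymes on cell membranes, was lowest in TAF-tib6 (1.17 against 2.10 in NSF, difference -0.93, SE 0.065, adjusted p = 1.11e-08). It was also called below NSF in the 3 resistant sources, at 1.83 to 1.88 (adjusted p = 0.00471 to 0.0221). With the slide pack block the calls of TAF-tib42 (adjusted p = 0.116) and TAF-tib48 (adjusted p = 0.394) were lost, and that of TAF-el4 was lost within the pack it shares with NSF (adjusted p = 0.0681). Cd59a, which blocks the terminal pore, was lowest in TAF-tib42 by both probes, at -0.087 and -0.36, against 0.50 and 0.26 in NSF. Cr1l, the membrane regulator Crry, was highest in TAF-tib42 (0.70) and TAF-tib48 (0.60), against 0.25 in NSF and 0.0024 in TAF-tib6. With the block, Cr1l was called against NSF in TAF-tib42 (0.47, adjusted p = 0.00375) and not in TAF-tib48 (adjusted p = 0.158) or TAF-tib6 (adjusted p = 0.193).

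**Figure D4:**
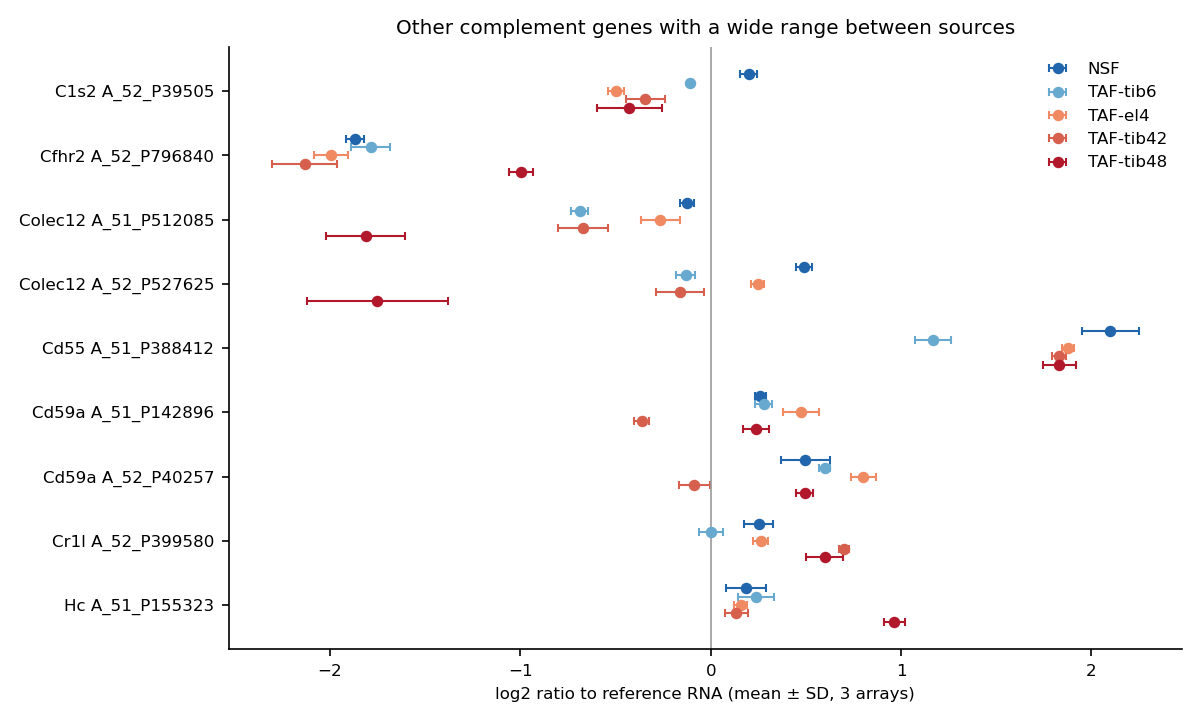
Log2 ratio to the reference RNA (horizontal axis, mean ± SD of 3 arrays) of the called probes of other complement genes with a wide range, by source. Colec12 is lowest and Cfhr2 and Hc highest in TAF-tib48, Cd59a is lowest in TAF-tib42 and Cd55 in TAF-tib6.

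Likeness of pattern was measured as Pearson's r over the 15 arrays, which share sources, among 626 probes whose source means spanned at least 1. It is a description without a test. C3 (A_51_P110301) was most like Cish (r = 0.9939), a feedback inhibitor of cytokine receptors, then Gpm6b (0.9737) and Dcn, the matrix proteoglycan decorin (0.9705). C1r was most like Pdgfra, a growth factor receptor of fibroblasts (0.9807), Cdh11 (0.9787) and Setbp1 (0.9779), and C1s most like Gpm6b (0.965), Abca1 (0.9639) and Cish (0.963). Serping1 was most like the basement membrane gene Nid2 (0.9858), Lbp (0.9685) and Ch25h (0.9499). Close to Cfb were Id4 (0.9677) and the cytokine Il6 (0.961), whose source means ran in the order of Cfb: 5.15 in NSF, 4.24 in TAF-tib42, 3.72 in TAF-tib6, 2.80 in TAF-el4 and 1.58 in TAF-tib48. C4b was most like Cgnl1 (0.9842), Susd6 (0.9795) and Lbp (0.974), and C2 most like Clec3b (0.9687), Adamts15 (0.9343) and Lbp (0.9333). Lbp, which encodes the lipopolysaccharide-binding protein, thus stood among the 3 nearest of Serping1, C4b and C2. Cfd had no close match, with 0.7097 for Rspo2.

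Between members, r was highest at 0.9744 for C3 with C1s, 0.9598 for C3 with C4b, 0.953 for Serping1 with C2 and 0.9502 for Serping1 with Cfb. It was lower for C1r with C2, at 0.7572 and 0.7442 by the probes of C2, and lay between -0.3137 and 0.1422 for Cfd with the other members. Between the probes of C3, r was 0.4814.

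The fibroblast label was checked against 11 marker genes, of which 10 were over 5 times the negative control percentile on all arrays of every source, as were 47.8% to 61.1% of all probes. The exception was Fap, at 35.3 to 50.4 mean net Cy5 units per source. Of the 11, 5 were called below NSF in TAF-tib6, 5 in TAF-el4, 4 in TAF-tib42 and 5 in TAF-tib48, and 0, 1, 0 and 2 above it, with median differences of -0.20, -0.14, -0.025 and -0.087. Of all probes, 6.62%, 8.54%, 13% and 14.1% were called below NSF in that order. Dcn and Pdgfra were lower in all 4, with Dcn at -0.0058 in NSF and -3.03 in TAF-el4 and Pdgfra at 1.30 in NSF and -0.11 in TAF-tib48. In TAF-tib48 S100a4 was higher than in NSF by 0.62 (adjusted p = 0.00255) and Vim by 0.40 (adjusted p = 0.0418), while Col1a1 (0.045) and Pdgfrb (-0.087) were not called. Mean net Cy5 of Vim (65228 to 65244), Col1a1 (65236 to 65252) and Col1a2 (65233 to 65249) hardly differed between sources, near the scanner's ceiling. S100a4 reached 65246 in TAF-tib48 against 63412 in NSF. At that ceiling Cy5 cannot show a difference between sources, so the ratios of these markers say little of their RNA. Macrophages also make complement. Of their 12 markers 5 to 7 were over 5 times the negative control percentile. Their summed net Cy5 was 2702 to 4050 in NSF and 2555 to 4362 over the TAF sources, and their median difference from NSF was 0.0059 to 0.064. Of 9 adipocyte markers 6 to 8 were over it, with sums of 3916 to 5471 in NSF and 2328 to 7316 over the TAF sources. Of 7 endothelial markers 2 were over it. Their sum was 720 to 1108 in NSF and 1506 to 2639 in TAF-tib48, where Emcn read 2.04 against 0.26 in NSF. Emcn made up most of that rise, with a mean net Cy5 of 1227 in TAF-tib48 and 274 in NSF. Cdh5 and Tek were also called higher there than in NSF, and Kdr, Pecam1, Tie1 and Vwf were not called (limma adjusted p = 0.151 to 0.921). Of 3 hepatocyte markers 0 were over it, with sums of 132 to 252. Of 8 lymphocyte markers 6 were over it in every source, with a sum of 34445 to 49242 in NSF and 16946 to 42382 over the TAF sources, and Thy1, which fibroblasts share, made up most of it. The 6 keratinocyte and epithelial markers had 4 over it in every source, with sums of 2002 to 4540. The part of these other cells in the complement values was not tested.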

How the data were processed

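Fibroblast RNA (Cy5) and a mouse reference RNA (Cy3) were measured on 15 arrays without dye swap, per the labels. The deposited scanner files hold spot intensities (mean signal and median background) and the scanner's log10 ratio, per the file headers, made with Agilent Feature Extraction 8.5.1.1 per the submitters' processing notes. The authors' deposited table holds log2 ratios that are not centred (column medians 0.0337 to 0.0511). The background was removed by normexp (offset 50) and arrays were normalised by loess, in limma 3.58.1 under R 4.3.3. Control spots had weight 0, outlier-flagged spots were left out and spots of a probe averaged. The offset shrinks ratios of dim probes. Testing required a Cy5 signal flagged well above background on every array of at least 1 source. Pairs of sources and an F-test came from 1 fit with a mean per source, and resistant against sensitive from the 5 source means. Tests were two-sided, adjusted by Benjamini-Hochberg over all probes tested, and called under 0.05. The fits were tested on simulated data. All member probes are named, with the 8 other complement genes of widest range among those called by the F-test and the 3 probes most like each member's brightest probe, except that some genes this rule names are not reported here. Blocks, scalings, channels, filters and left-out arrays were tried as alternatives. The members and lists were chosen with earlier results of these data known. Symbols and promoters come from RefSeq (GRCm38.p6). The sources used here do not give the build of the files' coordinates, so only distances are printed, and probe sequences and proteins were not used here.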

Additional observations from a re-analysis of the deposited data

How the results depend on the processing

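The counts of complement probes called against NSF were 9 to 10 for TAF-el4, TAF-tib42 and TAF-tib48 when any array or any replicate number was left out, and 7 to 9 for TAF-tib6. Leave-one-out counts were 6 to 7 for TAF-el4, 5 to 6 for TAF-tib42 and 6 to 8 for TAF-tib48 against TAF-tib6, 4 to 6 for TAF-el4 against TAF-tib42, 2 to 5 for TAF-el4 against TAF-tib48, 4 to 8 for TAF-tib42 against TAF-tib48, 9 to 10 for the F-test and 0 for resistant against sensitive. TAF-tib42 against TAF-tib48 gave 4 without replicate 1 or without replicate 2 of every source, and TAF-el4 against TAF-tib48 gave 5 without replicate 3.

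With slide pack as a block, counts fell from 9 to 3 for TAF-tib6 against NSF, from 5 to 1 for TAF-tib42 against TAF-tib6, from 5 to 3 for TAF-el4 against TAF-tib42 and from 3 to 0 for TAF-el4 against TAF-tib48. Over all probes the block took the calls from 4249 to 508 for TAF-tib6 against NSF, from 9546 to 3755 for TAF-tib42 against TAF-tib6, from 7920 to 2096 for TAF-el4 against TAF-tib6, from 9098 to 3419 for TAF-el4 against TAF-tib48, from 8904 to 5379 for TAF-el4 against TAF-tib42, from 5452 to 3081 for TAF-tib42 against TAF-tib48, from 9306 to 2983 for TAF-tib42 against NSF and from 10216 to 2480 for TAF-tib48 against NSF. The block leaves fewer arrays per pack to tell sources apart, and how much of the loss is due to that was not tested. With the source as a random block, a fit whose p-values can be too small, resistant against sensitive had 5 complement probes called lower in place of 0. Over all probes that comparison gave 1826 in place of 1, 11 without TAF-el4, and 0 without NSF, TAF-tib6 or TAF-tib48, with scaled log ratios or without background subtraction.

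Counting as reversed a change of sign in which at least 1 value is called, the complement probes had 1 reversal, that of C2 by A_51_P497985 between TAF-tib42 and TAF-tib6, which was 0.57 with Cy5 alone (adjusted p = 0.0298) and -0.025 as a ratio (adjusted p = 0.84). No other alternative moved a count of complement probes by over 1.5 times. Scaling the log ratios took the calls over all probes from 6707 to 3466 for TAF-el4, from 9306 to 5413 for TAF-tib42 and from 10216 to 5185 for TAF-tib48 against NSF, and to 5804, 4975 and 3005 for the pairs of resistant sources in the order TAF-el4 with TAF-tib42, TAF-el4 with TAF-tib48 and TAF-tib42 with TAF-tib48. Cy5 alone gave 4440 for TAF-el4 against NSF and 3072 for TAF-tib42 against TAF-tib48, and median centring took those of TAF-tib6 against NSF from 4249 to 7495.

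The replicate numbers of the labels do not pair the arrays: residuals of same-numbered arrays correlated at -0.188 to 0.16 (median -0.021), and 2 of 15 arrays correlated best with their own number. With the replicate block the counts of complement probes were the same in all comparisons fitted, 9 for TAF-el4, 9 for TAF-tib42, 10 for TAF-tib48 and 9 for TAF-tib6 against NSF. Dim probes included Cfd, which reached 1.18 to 2.98 times the negative control percentile, and the C3 probe A_52_P133594, which reached 2.69 to 5.92 times.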

Other observations

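A probe designed from an expressed sequence tag described as similar to C3, A_52_P1021909, is written on the opposite strand and shares 11 bases of position with the 3′ probe of C3. It was looked at after its values were seen. Its mean log2 ratio was 0.30 ± 0.050 in NSF, 0.23 ± 0.020 in TAF-tib6, 0.15 ± 0.045 in TAF-el4, 0.23 ± 0.062 in TAF-tib42 and 0.19 ± 0.019 in TAF-tib48 (SD, n = 3), at a net Cy5 intensity of 649 to 1418. TAF-el4 was called below NSF (-0.15, SE 0.043, limma adjusted p = 0.017), and the F-test across sources was not called (adjusted p = 0.0644).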
